A study of Chlorocebus sabaeus with 32 samples.

Results

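A set of 7 genes of the brain's hyaluronan matrix was followed across 32 RNA sequencing libraries of vervet monkey (Chlorocebus sabaeus) hippocampus. They were the 4 lecticans ACAN (aggrecan), BCAN (brevican), NCAN (neurocan) and VCAN (versican), the link protein genes HAPLN1 and HAPLN4, and TNR (tenascin-R). Each was found by its symbol in the table of read counts, where these genes made up 7 of 33994 gene rows. The study looked at how hippocampal gene expression develops, and its labels place every animal below 1 year of age with no treatment, sex or finer age. By the opening digits of their titles the libraries form group A (prefix_2009, 14 libraries), group B (prefix_2010, 16 libraries) and group C (prefix_2011, 2 libraries). Each title goes on with a number, which is below 20000 in 21 libraries and above it in 11. The labels do not say what the prefix or the number stands for, and all 14 libraries of group A have low numbers. Each title carries its own identifier, but nothing in the labels says that the libraries came from separate animals or separate preparations, so p-values measure only the spread between these libraries.

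Lecticans are large chondroitin sulfate proteoglycans that bind hyaluronan at one end and tenascins at the other. Link proteins clamp the bond between a lectican and hyaluronan, and tenascin-R ties lecticans to one another. Together they form the loose matrix of young brain and the dense perineuronal nets that later wrap certain neurons, above all fast-spiking interneurons that contain parvalbumin, around the close of periods of high plasticity. Neurocan and versican are known as abundant in the young brain, while brevican, aggrecan and tenascin-R are known as prominent in the adult matrix.

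The libraries held 9347635 to 19673621 gene counts each, with a median of 16201657. Levels are given as CPM, gene counts relative to library size, scaled by TMM, the trimmed mean of M-values. CPM are not divided by transcript length, so levels of different genes were not ranked against each other. Markers of all 10 cell classes looked for in a hippocampus were present. The summed level of 7 pyramidal neuron genes ran from 1853 to 4230 CPM in the group A libraries and from 1958 to 3789 CPM in the group B libraries. The sum of 7 dentate granule cell genes ran from 147 to 854 CPM and from 397 to 871 CPM, and TDO2 was the only marker at a count of 0 in any library. One library, group A replicate 1, stood apart with the lowest sums of pyramidal, dentate and immature neuron genes of all 32 and the highest sum of microglial genes. It also had the lowest depth, 9347635 gene counts, and the highest share of reads in no gene feature, 67.1%. In bulk tissue, fewer cells of a type and less RNA per cell cannot be told apart.

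BCAN, NCAN and ACAN were higher in the group B libraries than in the group A libraries, by 1.42-fold, 1.43-fold and 1.64-fold. HAPLN1 was 1.72-fold higher, the largest fitted difference of the 7 genes. VCAN had a fold of 1.25 with an interval above 1 and did not pass after adjustment, and neither did HAPLN4 (0.864-fold) or TNR (1.02-fold). In all, 4 of the 7 genes rose and 0 fell, against 12.5% of the 23977 genes tested that passed in either direction, 7.12% that were higher and 5.36% lower (edgeR's quasi-likelihood test, Benjamini-Hochberg adjusted p under 0.05). The median log2 difference of the 7 genes was 0.51, and that of all genes tested was 0.0053. The 7 genes and all lists were chosen with earlier results of these data known. Shares over all genes therefore stand beside their counts as a description only.

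**Figure D1:**
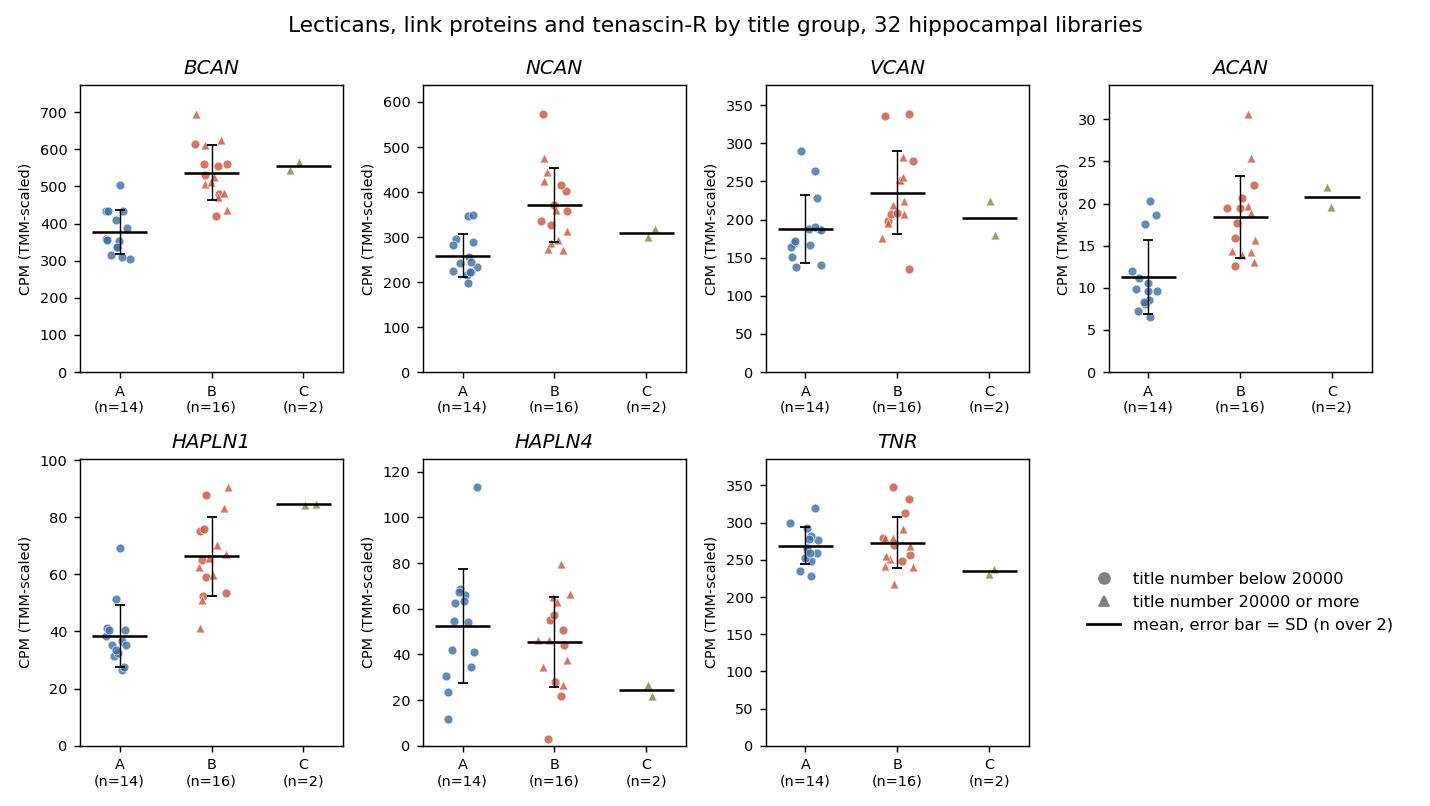
Level of each gene in CPM (vertical axis, from 0) in the 14 libraries of group A, 16 of group B and 2 of group C; points are libraries, circles have title numbers below 20000 and triangles higher ones, bars are means and error bars SDs where a group has over 2 libraries. All 16 libraries of group B lie above the group A median for BCAN, NCAN and ACAN as well as HAPLN1, while for HAPLN4 and TNR the groups overlap widely and HAPLN4 reaches down to 2.83 CPM.

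BCAN, the small lectican made by glia that is found in perineuronal nets and around synapses, ran from 305 to 504 CPM in the group A libraries with a median of 357, and from 419 to 696 CPM in the group B libraries with a median of 528. The means were 377 ± 59.0 CPM (SD, n = 14) and 537 ± 74.0 CPM (SD, n = 16), and the 2 libraries of group C had 543 and 565 CPM. Of the 16 libraries of group B, 11 lay above the highest of group A and all 16 above the group A median. The fitted log2 difference came to 0.51 ± 0.07 (SE; 95% interval of the fold 1.29 to 1.58; edgeR adjusted p = 0.000147).

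NCAN, a lectican of young neural tissue that binds neuronal adhesion molecules, ran from 198 to 349 CPM with a median of 244 in group A and from 272 to 574 CPM with a median of 359 in group B. Its means were 259 ± 47.6 CPM (SD, n = 14) and 371 ± 82.5 CPM (SD, n = 16), and the group C libraries had 299 and 318 CPM, inside both ranges. Here 9 of the 16 libraries of group B lay above every group A library. On the log2 scale the difference was 0.52 ± 0.10 (SE; 95% interval of the fold 1.25 to 1.64; edgeR adjusted p = 0.00114). The highest value, 574 CPM, came from group B replicate 11, and without that library the difference was 0.47 (edgeR adjusted p = 0.00171).

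ACAN, a lectican and a defining component of the nets, ran from 6.56 to 20.3 CPM with a median of 9.77 in group A and from 12.6 to 30.7 CPM with a median of 18.3 in group B. The means were 11.3 ± 4.38 CPM (SD, n = 14) and 18.4 ± 4.87 CPM (SD, n = 16), with 19.7 and 21.98 CPM in the group C libraries. Inside the group B range lay 3 of the 14 libraries of group A, against 4 for BCAN. Only 4 of 16 libraries of group B exceeded the highest of group A, against 11 for BCAN, although all 16 exceeded its median. That highest value of group A belonged to replicate 1, the library with the lowest sums of pyramidal, dentate and immature neuron genes. By edgeR the log2 difference was 0.71 ± 0.15 (SE; 95% interval of the fold 1.33 to 2.01; edgeR adjusted p = 0.00273), and 0.79 without that library (edgeR adjusted p = 0.000529).

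VCAN, a lectican made among others by oligodendrocyte precursors, ran from 137 to 290 CPM with a median of 179 in group A and from 135 to 339 CPM with a median of 221 in group B. The means were 188 ± 44.6 CPM (SD, n = 14) and 235 ± 54.5 CPM (SD, n = 16), and the group C libraries had 180 and 224 CPM. Every group A library lay inside the range of group B. The log2 difference was 0.32 ± 0.11 (SE; 95% interval of the fold 1.07 to 1.46; edgeR adjusted p = 0.0545). This call turned on single libraries: it passed when any 1 of 6 libraries was left out (group A replicates 9 and 12, group B replicates 2, 4, 6 and 10), with edgeR adjusted p from 0.0161 to 0.0499. By DESeq2 on all libraries it also passed (adjusted p = 0.0413).

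Some libraries of group A lay inside the group B ranges in several of these genes. Replicate 8 did so with 434 CPM of BCAN, 283 of NCAN, 17.6 of ACAN and 51.5 of HAPLN1. Replicate 1 did so with 433 CPM of BCAN, 348 of NCAN and 20.3 of ACAN, but not with HAPLN1 at 35.3 CPM. Replicate 12 had the highest BCAN, NCAN, VCAN and HAPLN1 of the 14 libraries of group A. It also had the highest summed level of mature oligodendrocyte markers of all 32 libraries (9376 CPM) and the highest of precursor markers in group A (786 CPM). Its sum of dentate granule cell markers was the second lowest of all 32 (373 CPM). Immature neuron genes summed to 2138 CPM in replicate 12 and 2644 CPM in replicate 8, against a group A mean of 1766 CPM. The part of these markers in the levels was not tested. Without replicate 12 the log2 differences were 0.55 for BCAN, 0.56 for NCAN, 0.39 for VCAN and 0.87 for HAPLN1. All were past the threshold (edgeR adjusted p from 4.11e-06 to 0.0161).

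HAPLN1, the link protein of cartilage and of perineuronal nets, ran from 26.5 to 69.1 CPM with a median of 35.9 in group A and from 41.4 to 90.4 CPM with a median of 65.5 in group B. The means were 38.6 ± 10.8 CPM (SD, n = 14) and 66.3 ± 13.7 CPM (SD, n = 16). Both group C libraries stood high, at 84.4 and 84.5 CPM. Only 2 of the 14 libraries of group A reached into the range of group B, and 6 of 16 libraries of group B lay above every group A library. The fitted log2 difference came to 0.78 ± 0.11 (SE; 95% interval of the fold 1.47 to 2.01; edgeR adjusted p = 0.000147).

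HAPLN4, the brain link protein known as a partner of brevican in nets, behaved differently. It ran from 11.8 to 113 CPM with a median of 54.5 in group A and from 2.83 to 79.7 CPM with a median of 46.3 in group B. The means were 52.4 ± 24.99 CPM (SD, n = 14) and 45.3 ± 19.7 CPM (SD, n = 16), and the group C libraries had 21.9 and 26.7 CPM. No group B library exceeded the highest of group A, and 6 of 16 exceeded its median. On the log2 scale the difference was -0.21 ± 0.26 (SE; 95% interval of the fold 0.605 to 1.24; edgeR adjusted p = 0.657), so these libraries allow a difference in either direction.

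The spread of HAPLN4 between libraries was the widest of the 7 genes. Its highest level was 39.97 times its lowest over the 32 libraries, against 4.68 times for ACAN, 3.42 times for HAPLN1 and 1.60 times for TNR. Without the 2 libraries of lowest HAPLN4, its highest level was 5.23 times its lowest. Over all 32 libraries its biological coefficient of variation, edgeR's estimate of the spread between libraries beyond counting error, was 0.517. That was larger than the value of 98.8% of 19959 genes. ACAN and HAPLN1 followed with 0.360 and 0.339, then NCAN with 0.248, VCAN with 0.236 and BCAN with 0.217. TNR had 0.119, below the median of 0.157 over all genes. Differences between title groups are part of these values.

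The lowest HAPLN4 came from group B replicate 2, with 34 counts and 2.83 CPM. The next lowest was group A replicate 1, with 122 counts and 11.8 CPM. Both were also the lowest of the 32 libraries in the pyramidal neuron sum, with 1958 and 1853 CPM. Group B replicate 15 had nearly the same sum, 1964 CPM, with 26.5 CPM of HAPLN4. Leaving out the 2 libraries of lowest HAPLN4, the log2 difference of VCAN was 0.36 and passed (edgeR adjusted p = 0.0226), which made 5 of the 7 genes higher.

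The ratio of HAPLN1 to HAPLN4 moved toward HAPLN1 in the group B libraries. It is a ratio of CPM and so includes the lengths of both transcripts, which cancel only in comparisons between libraries. The ratio ran from 0.323 to 2.98 with a median of 0.748 in group A and from 0.519 to 23.03 with a median of 1.498 in group B, and the group C libraries had 3.16 and 3.86. Of the 16 libraries of group B, 15 lay above the group A median and 3 above the highest of group A. The mean log2 ratio was higher by 1.08 ± 0.39 (SE), a 2.11-fold difference (two-sided permutation test over 14 and 16 libraries, p = 0.00692, adjusted over 3 ratios 0.0104). Without the 2 libraries of lowest HAPLN4, which hold the highest ratio of each group, the difference was 0.97 (permutation test, adjusted p = 0.00267).

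**Figure D2:**
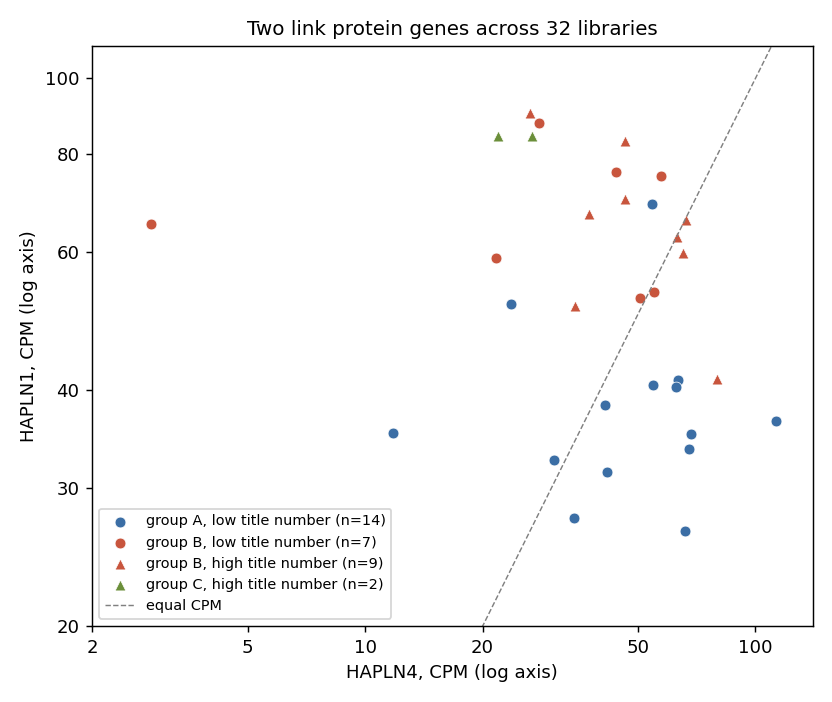
HAPLN1 against HAPLN4 in CPM in 32 libraries, both axes on log scales; color marks the title prefix, shape the title number, and the dashed line equal CPM, which is not equal molecules because transcript length was not divided out. HAPLN1 separates most libraries of group A from those of group B, HAPLN4 does not, and the point far to the left is group B replicate 2 with 2.83 CPM of HAPLN4.

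TNR, the tenascin of nets made by oligodendrocytes and some interneurons, held a narrow range. It ran from 229 to 319 CPM with a median of 265 in group A and from 218 to 347 CPM with a median of 269 in group B. The means were 269 ± 24.8 CPM (SD, n = 14) and 273 ± 34.6 CPM (SD, n = 16), and the group C libraries had 232 and 238 CPM. All 14 libraries of group A lay inside the range of group B, and 9 of 16 libraries of group B lay above the group A median. By edgeR the log2 difference was 0.02 ± 0.06 (SE; edgeR adjusted p = 0.840), and its 95% interval of 0.940- to 1.10-fold leaves out a difference as large as that of BCAN.

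Its relative TNC (tenascin-C), the tenascin of neural progenitors and embryonic tissue, rose. TNC ran from 164 to 350 CPM with a median of 224 in group A and from 265 to 615 CPM with a median of 362 in group B, and 9 of 16 libraries of group B lay above every group A library. The log2 difference was 0.67 ± 0.11 (SE; edgeR adjusted p = 0.000315). The ratio of TNC to TNR was accordingly higher by 0.64 ± 0.12 (SE) on the log2 scale, a 1.55-fold difference (permutation test over 14 and 16 libraries, adjusted p = 0.00018). NCAN to BCAN, a young-matrix lectican against a mature one, showed a log2 difference of -0.00 ± 0.07 (SE; permutation test over the same libraries, adjusted p = 0.950).

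The other link protein genes did not follow HAPLN1. HAPLN2, the link protein of the nodes of Ranvier on myelinated axons, ran from 15.4 to 55.1 CPM with a median of 36.1 in group A and from 6.06 to 33.7 CPM with a median of 15.7 in group B. It fell by 1.17 on the log2 scale (SE 0.21; edgeR adjusted p = 0.000699), and 8 of 16 libraries of group B lay below every group A library. HAPLN3, the most widely expressed of the family, had means of 31.6 ± 8.46 CPM (SD, n = 14) and 33.1 ± 4.78 CPM (SD, n = 16) and a log2 difference of 0.07 ± 0.09 (SE; edgeR adjusted p = 0.653).

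Since every group A library had a low title number, the prefixes were also compared among low numbers only, with 14 libraries of group A and 7 of group B. The same 4 of 7 genes rose, against 5.23% of 22203 genes in either direction, 3.09% higher and 2.14% lower. The log2 differences were 0.70 ± 0.19 for ACAN, 0.49 ± 0.09 for BCAN, 0.62 ± 0.11 for NCAN and 0.79 ± 0.14 for HAPLN1 (SE; edgeR adjusted p from 0.0052 to 0.0351). VCAN had 0.37 ± 0.16 (edgeR adjusted p = 0.170), HAPLN4 -0.50 ± 0.37 (0.466) and TNR 0.12 ± 0.07 (0.352).

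Within the group B libraries, 9 with high and 7 with low title numbers were set against each other. None of the 7 genes passed, and 0% of 21488 genes did by edgeR, while 3023 had an unadjusted p under 0.05, DESeq2 called 198 and limma-voom 0. The high-minus-low log2 differences were 0.01 ± 0.17 for ACAN, 0.02 ± 0.10 for BCAN, -0.19 ± 0.14 for NCAN, -0.09 ± 0.16 for VCAN and -0.03 ± 0.14 for HAPLN1 (SE). For HAPLN1 the 95% interval ran from 0.809- to 1.19-fold. TNR had -0.18 ± 0.08 (interval 0.790- to 0.982-fold; edgeR adjusted p = 0.313) and HAPLN4 0.48 ± 0.37 (0.847- to 2.29-fold).

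**Figure D3:**
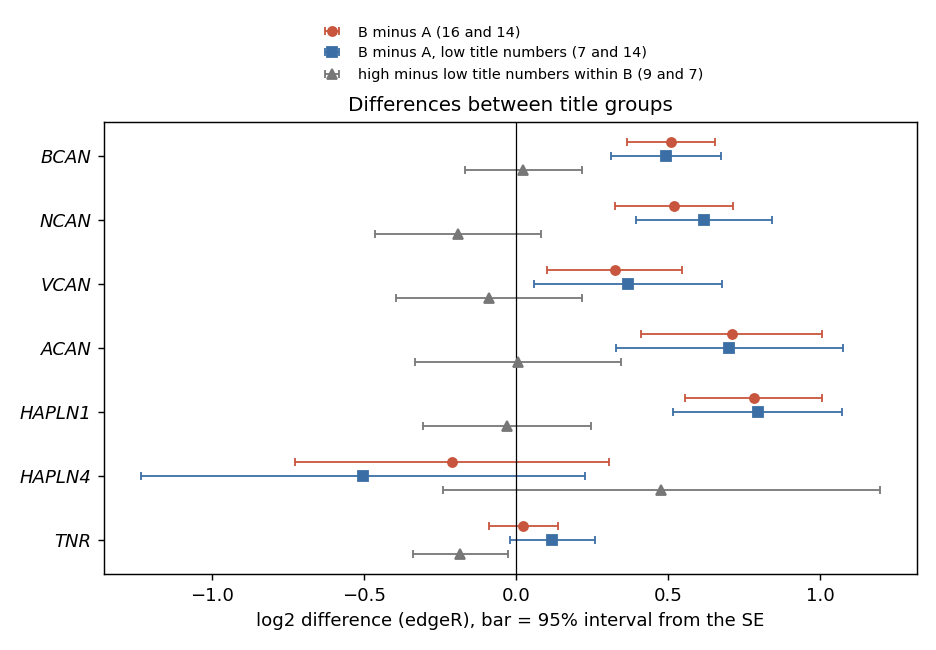
log2 difference of each gene (horizontal axis) with a bar for the 95% interval from its standard error, for group B minus group A in all libraries (circles), among low title numbers (squares), and for high minus low title numbers within group B (triangles). BCAN, NCAN and ACAN as well as HAPLN1 lie to the right of 0 in both prefix comparisons, at 0.49 to 0.79, while HAPLN4 has the widest bars.

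Across the 32 libraries BCAN, NCAN and ACAN moved together with HAPLN1. Of the 21 pairs among the 7 genes, 13 passed by Pearson's r of log2 CPM, 12 of them positive (permutation tests with 100000 resamples, adjusted over the 21 pairs). The share over pairs of other genes was not computed. BCAN and HAPLN1 had r = 0.92 and Spearman's rho = 0.92 (permutation, n = 32, both adjusted p = 3.5e-05), and r was 0.82 within group A and 0.78 within group B. ACAN and BCAN had r = 0.86 and rho = 0.82, with 0.73 and 0.72 within the prefixes. BCAN and NCAN had 0.82 and 0.83, with 0.75 and 0.64 within the prefixes. These 3 pairs, and ACAN with NCAN (0.82 over 32 libraries), passed in both prefixes, where 5 pairs passed in group A and 7 in group B. When each pair was taken without the 2 libraries farthest from the median of its first gene, 10 of the 13 still passed, with r = 0.91 for BCAN and HAPLN1, 0.84 for ACAN and BCAN and 0.80 for BCAN and NCAN. The 3 that no longer passed were ACAN with HAPLN4, at -0.38 against -0.42 over all 32, NCAN with TNR, at 0.29 against 0.43, and VCAN with TNR, at 0.32 against 0.52. NCAN with TNR passed within group B (0.67) and VCAN with TNR within group A (0.67).

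The remaining genes stood more to the side. VCAN had r = 0.58 with NCAN and 0.52 with TNR, and of its pairs only that with TNR passed within a prefix (group A, r = 0.67; group B, r = 0.52, adjusted p = 0.0987). HAPLN4 passed with ACAN alone, at r = -0.42 and rho = -0.55 (permutation, adjusted p = 0.0243 and 0.0039), and neither prefix alone passed. HAPLN1 and HAPLN4 had r = -0.24 and rho = -0.31 (permutation, n = 32, adjusted p = 0.256 and 0.128), with -0.01 within group A and -0.21 within group B.

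Each link protein gene neighbours a lectican gene in mammalian genomes, and the reference gene table of the assembly mChlSab1.0.hap1 lists these neighbours for the vervet. HAPLN3 lies next to ACAN and HAPLN4 next to NCAN with 0 genes between, and HAPLN2 and BCAN have 1 gene between them, not protein-coding. For HAPLN1 and VCAN, the 2 genes counted are pseudogenes that overlap HAPLN1. The 4 pairs had no common sign. HAPLN4 and NCAN had r = -0.19, HAPLN2 and BCAN -0.71, HAPLN3 and ACAN 0.41 and HAPLN1 and VCAN 0.47. By permutation 3 of the 4 passed over 32 libraries and 0 within either prefix. Pairs of other neighbouring genes were not computed. In that table BCAN, NCAN, HAPLN1 and HAPLN2 overlap short or non-coding genes, and whether counting used the strand is not given in the sources used here, so some of their reads may belong to those.

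Markers of young neurons and of oligodendrocyte precursors differed between the prefixes as well. Of 12 immature neuron genes, such as DCX and SOX4, 11 rose and 0 fell in group B against group A, and their summed level was 1336 to 2644 CPM in group A and 1573 to 4119 CPM in group B. Of 9 precursor genes, such as PDGFRA and OLIG1, 6 rose and 0 fell, with sums of 389 to 786 CPM and 506 to 930 CPM. Astrocyte genes passed in 0 of 9 cases, with sums of 6264 to 9478 CPM and 5942 to 9548 CPM. Of 9 fast-spiking interneuron genes 2 rose (GAD1 and LHX6) and 1 fell (KCNC1), with sums of 594 to 716 CPM and 591 to 731 CPM. PVALB, the parvalbumin gene, had a log2 difference of -0.33 ± 0.21 (SE; edgeR adjusted p = 0.317). None of these markers was at 0 in any library.

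The other lists passed in 1 or 2 genes each, where 12.5% of all genes tested were called, and 1 of 7 to 1 of 10 lies near that share. Of 8 mural and fibroblast genes 1 rose (PDGFRB), with sums of 188 to 647 CPM in group A and 259 to 584 CPM in group B, and of 8 endothelial genes 1 fell (SLCO1A2), with sums of 263 to 394 and 242 to 485 CPM. Of 7 microglial genes 2 rose (C1QA and C1QB), with sums of 186 to 328.6 and 168 to 270 CPM. Of 10 mature oligodendrocyte genes 1 fell (KLK6), with sums of 4022 to 9376 and 2079 to 8777 CPM. Of 7 pyramidal genes 2 fell, SLC17A7 and CAMK2A, and of 7 dentate genes 1 fell (C1QL2). The part of these cell classes in the differences of the 7 genes was not tested, and with a score of immature neuron genes in the fit, 0 of the 7 genes passed, with log2 differences of 0.17 for HAPLN1 and NCAN, 0.24 for BCAN and 0.27 for ACAN. In that fit 1 gene of the whole table passed, LOC103229673, with a log2 difference of 4.14 ± 0.68 (edgeR, adjusted p = 0.017).

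Each gene was next compared across libraries with 10 marker scores, the mean z-scored log2 CPM of a marker list. Of 70 pairs of gene and list, 23 passed (permutation of Pearson's r, adjusted over the 70), 20 of them positive. Of the 22362 genes fitted against the immature neuron score, 31.3% passed in either direction (edgeR). For the other lists the share over all genes was not computed. HAPLN1 followed immature neuron genes most closely, with r = 0.94 and rho = 0.93 (permutation, n = 32, adjusted p = 6.36e-05 and 7e-05), and r = 0.82 within group A and 0.89 within group B, both of which passed. Without the 2 libraries of most extreme HAPLN1, r was 0.94. The lecticans passed with the same list over the 32 libraries, at 0.83 for BCAN, 0.75 for ACAN, 0.70 for NCAN and 0.45 for VCAN. None of the 4 lecticans passed with it within a prefix. There BCAN had 0.51 in group A and 0.64 in group B, and ACAN 0.36 and 0.63. NCAN had 0.22 and 0.68, and VCAN 0.28 and 0.32. With oligodendrocyte precursor genes all 4 lecticans passed, and so did HAPLN1 at 0.80. There BCAN had r = 0.89 (0.84 within group A and 0.66 within group B), ACAN 0.83 (0.78 and 0.51), NCAN 0.82 (0.89 and 0.56) and VCAN 0.66 (0.55 and 0.60). With that list only BCAN, NCAN and ACAN passed within a prefix, in group A alone, and none of the 7 genes did in group B. Without the 2 libraries farthest from each gene's median these were 0.87 for BCAN, 0.79 for ACAN, 0.83 for NCAN and 0.61 for VCAN. With mural and fibroblast genes ACAN had r = 0.75, BCAN 0.74, HAPLN1 0.73 and NCAN 0.57, and with endothelial genes ACAN had 0.53, BCAN 0.55, NCAN 0.47 and VCAN 0.42, all of which passed over the 32 libraries. The 3 negative calls were ACAN with pyramidal genes (-0.48) and with dentate genes (-0.43) and NCAN with dentate genes (-0.47).

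HAPLN4 passed with 2 of the 10 lists, pyramidal and fast-spiking. With pyramidal neuron genes, such as SLC17A7 and CAMK2A, it had r = 0.79 and rho = 0.80 (permutation, n = 32, adjusted p = 6.36e-05 and 7e-05), with r = 0.87 within group A and 0.77 within group B, both of which passed. With fast-spiking interneuron genes it had r = 0.71 and rho = 0.58, with 0.67 and 0.71 within the prefixes (permutation, adjusted p = 0.0656 and 0.0735). The fast-spiking score averages genes that differ in direction: of the 9, 3 rose and 4 fell with the immature neuron score (edgeR). With dentate granule cell genes r was 0.37 and did not pass (permutation, adjusted p = 0.12). Without the 2 libraries of lowest HAPLN4 the pyramidal and fast-spiking values were 0.77 and 0.51, and the dentate value -0.04. In those 30 libraries mature oligodendrocyte genes had r = 0.66 (permutation, adjusted p = 0.000408), against 0.33 over all 32, and mural and fibroblast genes -0.51 (0.0152), against -0.30. By rho over all 32 libraries both lists passed as well, at 0.47 and -0.42. Within the prefixes neither passed. With immature neuron genes r was -0.19, and -0.55 without those libraries (permutation, adjusted p = 0.00827). That relation was 0.02 within group A and -0.03 within group B. TNR passed with 0 of the 10 lists.

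**Figure D4:**
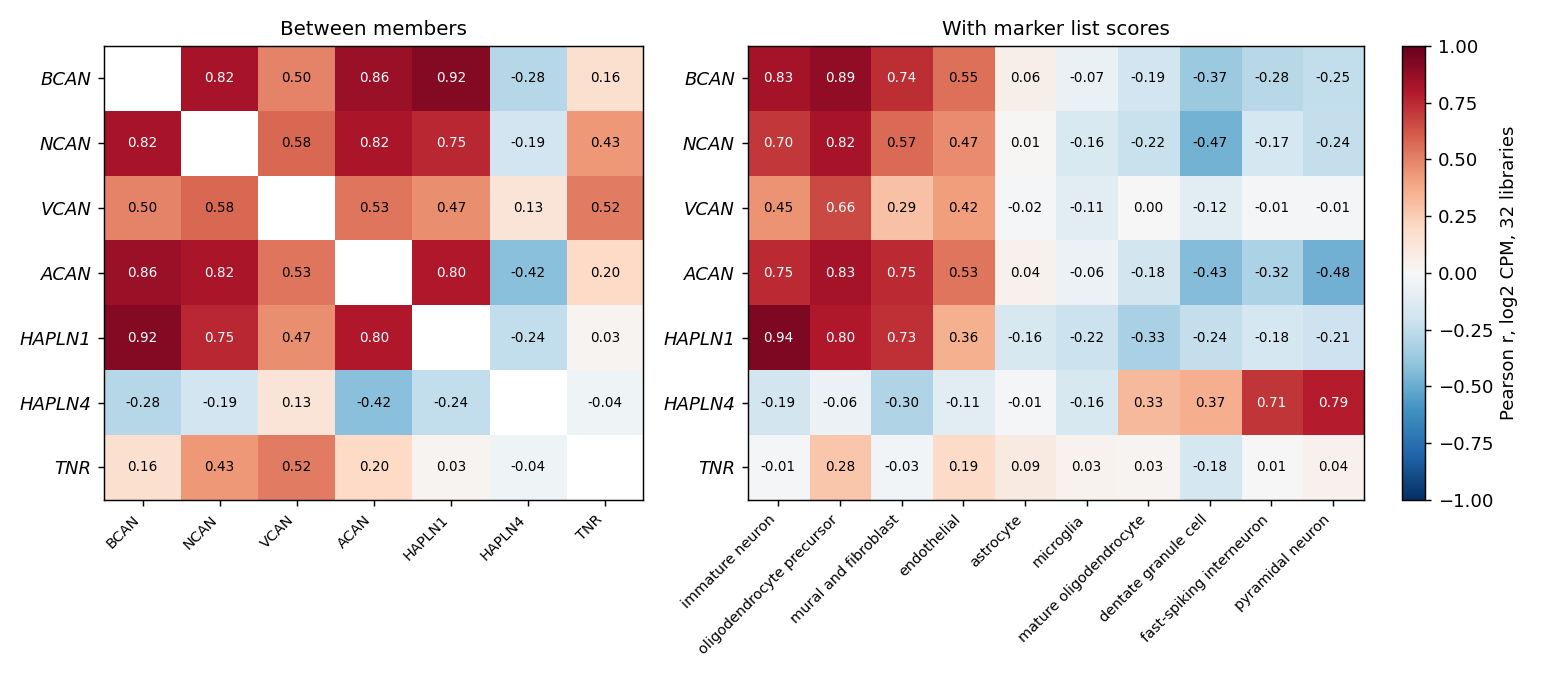
Pearson's r of log2 CPM over 32 libraries between the 7 genes (left) and of each gene with 10 marker scores (right); color and printed value give r. HAPLN4 is the only row with high values for pyramidal and fast-spiking genes (0.79 and 0.71), HAPLN1 has 0.94 with immature neuron genes, and TNR runs from -0.18 to 0.28 over the marker scores.

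Fitted as a slope over all 32 libraries, log2 levels changed with the immature neuron score, in units of its SD, in 5 of the 7 genes, all upward, where 31.3% of 22362 genes passed in either direction and 15.6% upward. Among the genes, BCAN rose by 0.27 ± 0.03 per SD (SE; edgeR adjusted p = 2e-07), NCAN by 0.26 ± 0.05 (4.62e-05) and VCAN by 0.15 ± 0.06 (0.0327), while the slope was larger for ACAN at 0.40 ± 0.07 and for HAPLN1 at 0.49 ± 0.03. HAPLN4 had -0.26 ± 0.13 (edgeR adjusted p = 0.133) and TNR -0.00 ± 0.03 (0.969). Outside the 7 genes, HAPLN2 fell by 0.88 per SD (SE 0.06) and TNC rose by 0.41 (SE 0.04). With the prefix in the fit, BCAN, NCAN and HAPLN1 passed, and ACAN had 0.31 (edgeR adjusted p = 0.0714) and VCAN 0.14 (0.387). Without the 2 libraries of lowest HAPLN4, its own slope was -0.34 and passed (edgeR adjusted p = 0.00358), making 6 of 7.

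**Figure D5:**
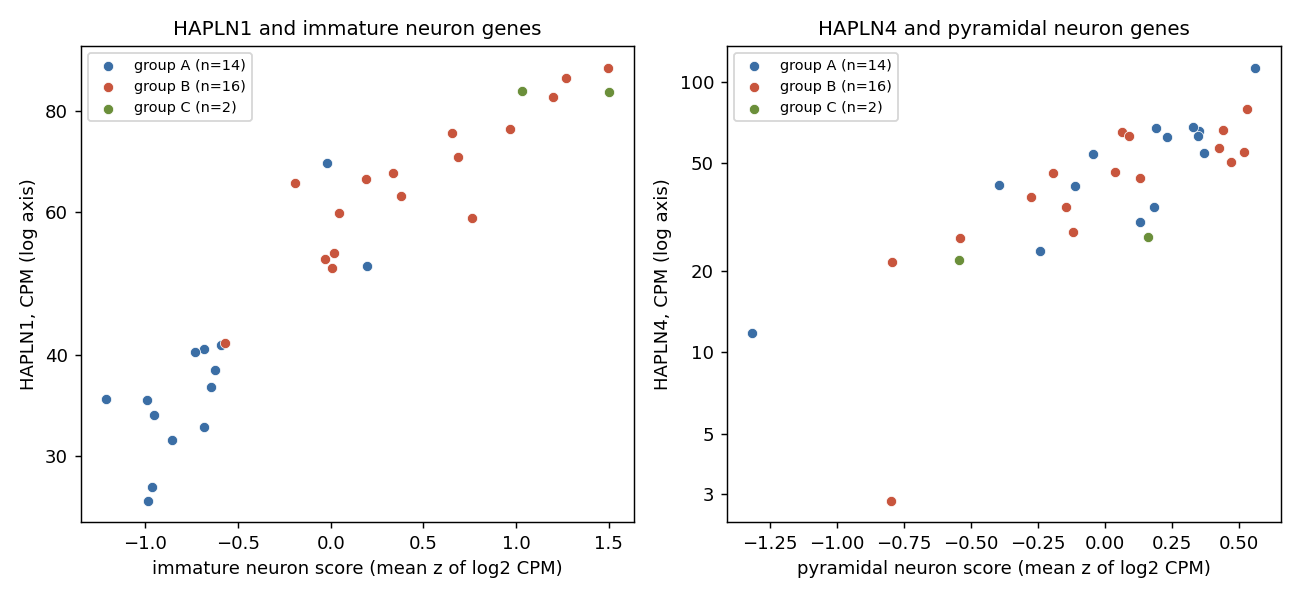
HAPLN1 against the immature neuron score (left) and HAPLN4 against the pyramidal neuron score (right) in 32 libraries, CPM on log axes and scores as mean z-scored log2 CPM; color marks the title prefix. HAPLN1 rises along the score within groups A and B (r = 0.82 and 0.89), and the 2 libraries of lowest HAPLN4, at 2.83 and 11.8 CPM, have low pyramidal scores.

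The genes whose levels ran most alike were picked from 14494 genes by Pearson's r of log2 CPM over the 32 libraries, as a description. For BCAN they were MARCKSL1 (0.92), a growth cone protein of young neurons, LHFPL3 (0.92), a marker of oligodendrocyte precursors, and C25H1orf106 (0.92). For HAPLN1 they were the transcription factor SOX4 (0.93), NRAS (0.93) and again MARCKSL1 (0.93). ACAN ran with the microtubule-end protein MAPRE1 (0.90), LIMS2 (0.89) and MARCKSL1 (0.89). For NCAN they were MTSS1 (0.90), the large cadherin DCHS1 (0.89) and the calcium channel gene CACNA1G (0.87). VCAN had PTPRZ1 (0.81), a phosphatase of precursors that is itself a chondroitin sulfate proteoglycan, MDM2 (0.74) and KAT6A (0.71). HAPLN4 ran with HPSE2 (0.89), G0S2 (0.87) and the calcium-binding protein gene CABP7 (0.87), and with HPSE2 at 0.92 within group A and 0.96 within group B. TNR had ZBED3 (0.85), POGZ (0.83) and RFX7 (0.83). Both genes of each pair come from the same libraries, which differ in prefix, depth and levels of cell type markers.

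The log2 ratio of HAPLN1 to HAPLN4 was tracked most closely upward by SYNDIG1L (0.87), ETNK2 (0.86), CHODL (0.86), IGSF3 (0.85) and XKR4 (0.84). The genes that ran most against it were KCNAB2 (-0.89), a subunit of potassium channels, CPEB1 (-0.88), CPLX2 (-0.86), which acts in synaptic vesicle release, AIM1 (-0.86) and the calcium release channel ITPR1 (-0.85). Within group A the value for SYNDIG1L was 0.76 and for KCNAB2 -0.73, and within group B they were 0.95 and -0.91.

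Other genes of the matrix were read as whole lists in the prefix comparison, in which 7.12% of all genes tested were called higher and 5.36% lower, with a median log2 difference of 0.01. Of 12 further matrix and net-binding proteins tested, 4 rose and 0 fell, with a median log2 difference of 0.29. Besides TNC these were CSPG5 (0.35 ± 0.06), a brain chondroitin sulfate proteoglycan, PTPRZ1 (0.25 ± 0.07) and SEMA3A (0.88 ± 0.26), a guidance cue that nets hold. SEMA3A had 6.55 ± 2.53 CPM (SD, n = 14) and 12.03 ± 10.3 CPM (SD, n = 16). Of 15 matrix proteases and inhibitors, 5 rose and 2 fell, and MMP14 (0.81 ± 0.18), which cuts collagen and activates another protease, MMP16 (0.29 ± 0.07), ADAMTS9 (0.58 ± 0.14), of a family that cuts lecticans, and the inhibitor TIMP4 (0.32 ± 0.08) had the smallest p. The other riser was TIMP2 (0.26 ± 0.08), and ADAMTS1 (-0.95 ± 0.26) and ADAMTS8 (-0.47 ± 0.12) fell. ADAMTS4 and ADAMTS5, known to cut brevican and aggrecan, had 0.36 ± 0.20 and 0.15 ± 0.12 and did not pass.

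Enzymes that build the sugar chains were read in the same way. Of 23 chondroitin sulfate synthesis genes 5 rose and 1 fell, with a median log2 difference of 0.07. B3GAT2 rose by 0.35 ± 0.07. CSGALNACT1 (0.46 ± 0.13) starts the chain, DSEL (0.39 ± 0.09) is an epimerase and CHST7 (0.27 ± 0.08) a sulfotransferase. B3GALT6 (0.20 ± 0.07), which acts in the linker to the core protein, rose as well, and the sulfotransferase UST (-0.27 ± 0.08) fell. Of 8 hyaluronan genes 1 rose, a share at the 12.5% called over all genes. It was the synthase HAS2, by 0.69 ± 0.15, from 2.60 ± 0.766 CPM (SD, n = 14) to 4.18 ± 1.14 CPM (SD, n = 16). Of 10 receptors of chondroitin sulfate and their partners 1 rose, EGFR by 0.38 ± 0.10, which is likewise near the share over all genes. RTN4R, a receptor that limits axon growth, had -0.34 ± 0.13 and did not pass (edgeR adjusted p = 0.0713).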

How the data were processed

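Total RNA of 32 hippocampal samples was depleted of ribosomal RNA and made into stranded libraries, per the labels' protocols. The authors deposited raw read counts per gene, unnormalized. Per the submitters' processing notes, the tools were STAR and HTSeq. Not given in the sources used here are tool versions, genome build, annotation and strand setting. From the table, 5 rows that name no gene were left out of library sizes and tests, the largest being reads in no gene feature, at 51.3% to 67.1% of all reads counted. No sample column was left unused. For 825 rows named by a gene number the symbol came from the mChlSab1.0.hap1 gene table, used only for names and neighbours.

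The 7 genes and all lists were chosen with earlier results of these data known. Counts were scaled by TMM and tested by edgeR 4.0.16 (quasi-likelihood, R 4.3.3) after filterByExpr (minimum count 10, minimum total 15, proportion 0.7), with Benjamini-Hochberg adjustment over all genes tested and a threshold of 0.05. The 2 libraries of group C entered the prefix comparison for the estimate of spread only. Groups came from the titles, and replicate numbers follow deposition order and pair nothing. Ratios and correlations used two-sided permutation tests with 100000 resamples, whose smallest p is 1e-05, and log2 CPM with a prior count of 2. Besides the 7 genes, named genes were HAPLN2, HAPLN3 and TNC, up to 4 of each list by smallest p, the first 2 of each marker list, and the 3 most alike per gene at a mean CPM of at least 1. ADAMTS4, ADAMTS5, PVALB, LOC103229673 and single members that complete a count (ADAMTS1, ADAMTS8, TIMP2, B3GALT6, UST) were named after their values were seen. Of the listed genes CEMIP2, TUBB2B and AIF1 matched no row. The fits were tested on simulated counts. Alternatives were other scalings and filters, DESeq2 1.42.0, limma-voom (limma 3.58.1), covariates and subsets of libraries. Leaving out both libraries of lowest HAPLN4 was added after seeing the data. Figures were drawn with matplotlib 3.10.9.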

Additional observations from a re-analysis of the deposited data

Results flagged for a closer look

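Dixon's criterion at the 95% level was applied to 20 sets of 7 or 9 libraries (each gene and ratio among the low and the high title numbers of group B), and 4 single values stood out. Its chance rate of about 1 in 20 holds for independent sets of normally distributed values. Here CPM and ratios were used without logs, and the genes enter their own ratios, so that rate need not apply. NCAN reached 574 CPM in group B replicate 11, with 417 CPM the next highest of 7 libraries. The ratio of NCAN to BCAN was 1.08 in the same library, with 0.781 next. The ratio of HAPLN1 to HAPLN4 was 23.03 in group B replicate 2, with 3.15 next, and that library had 34 counts of HAPLN4. Among the 9 libraries of high title number, group B replicate 15 had a ratio of 3.41, with 1.80 next, and it also held the highest HAPLN1 and BCAN of all 32 libraries.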

How the results depend on the processing

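Of the 12 alternatives of the prefix comparison, 11 gave 4 or 5 of the 7 genes higher, and the immature neuron score as a covariate gave 0. VCAN passed under 4 of the 12 (library size only, DESeq2, the share of reads in no gene feature as a covariate, and leaving out both libraries of lowest HAPLN4), and leaving out each library in turn gave 4 to 5 genes. The slope on the immature neuron score gave 3 genes with the title prefix as a factor instead of 5, and the cause was not tested. The comparison of title numbers gave 0 under every alternative and 0 without each library. The HAPLN1 to HAPLN4 log2 ratio stayed higher in group B, at 1.57 among low title numbers and 0.83 to 1.22 without each library. Among pairs of the 7 genes 5 passed within group A and 7 within group B instead of 13, among neighbours 0 and 0 instead of 3, and with marker lists 10 and 2 instead of 23; each prefix holds fewer libraries, and the cause was not tested further. No paired analysis was possible because the replicate numbers were given in deposition order and name no shared animal. At 9347635 counts, the lowest depth, 3 counts are 0.321 CPM, below every level given for the 7 genes.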
